A study of Mus musculus with 6 samples.

Results

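The cytosolic ribosomal protein genes encode the protein shell of the ribosome, and their mRNAs were measured here in erythroblasts with and without P38α. They were chosen by name, as array probes whose gene symbol is Rpl or Rps followed by a number (with an optional a, l or x), or Rpsa, Rplp0, Rplp1 or Rplp2. This gave 186 probes of 80 genes among 55681 probes, of which 116 probes of 48 genes belong to the large subunit and 70 probes of 32 genes to the small subunit. A probe was tested where it was well above background, as the scanner software marked it, on all 3 arrays of either genotype. That kept 178 of the 186 probes and 77 of the 80 genes, and 175 probes were well above background on all 6 arrays.

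RNA came from sorted CD71highTer119+ bone marrow (BM) erythroblasts of 3 P38α+/- and 3 P38α-/- mice. Both genotypes carried Mx1-Cre, a recombinase that interferon switches on in blood-forming and other cells, together with 1 floxed P38α allele in P38α+/- mice and both alleles floxed in P38α-/- mice. All 6 mice therefore carried Cre and received PolyIC (3 injections of 300 µg, begun at 6 to 8 weeks of age), and after 6 weeks of rest phenylhydrazine (PHZ, 100 mg per kg), an agent that destroys red cells. Erythroblasts were taken on day 4 of recovery, and 10 ng of RNA per mouse was hybridised to 1 Agilent array, so no untreated or Cre-negative mouse is in the comparison.

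A ribosome is built from ribosomal RNA and a fixed set of proteins, each needed in about equal number, and the genes of these proteins are spread over nearly all chromosomes. Their mRNAs typically begin with a C followed by a run of pyrimidines, the TOP motif, through which mTOR and Larp1 set how strongly they are translated. Erythroblasts rely on them heavily for globin synthesis, and loss of a single copy of certain members causes Diamond-Blackfan anemia, a failure of red cell production.

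RefSeq start sites were at hand for 60 of the 80 genes. At 13 of their 72 start sites (18.1%), each of a different gene, a C and at least 4 further pyrimidines stood from the annotated start base on, against 2.51% of all 32851 start sites. The start sites of the members described below that have such a run are shown from 5 bases before the start to the 20th base of the transcript, with the run in capitals (GRCm38.p6).

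Rpl14 (chr9:120571512-120571536, plus strand): tctctCTTCTCgctgagcgccgcca
Rpl15 (chr14:18270967-18270991, minus strand): gccttCTTCCTTTCCTCTggcggca
Rpl28 (chr7:4792960-4792984, plus strand): tgtctCTCTTTCCgtctccggccgc
Rpl35 (chr2:39005112-39005136, minus strand): ctttcCTCTTTCTCTCgaaccaggc
Rpl35a (chr16:33056477-33056501, plus strand): ccttcCTCTTTCCgccatcttggcg
Rplp2 (chr7:141447646-141447670, plus strand): tcttcCTTTCgccgccggacgccgc
Rps10 (chr17:27635225-27635249, minus strand): cgcccCTTCCTTTCCagcctccgcc
Rps15a (chr7:118116128-118116152, minus strand): gccatCTTCCCTCgccggtgagtga
Rps27 (chr3:90213629-90213653, minus strand): tcgctCCTTTCCggcggtgacgacc

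In the 300 bases around the start, from 250 bases before it, CCGGAAG on either strand was found for 25 of the 60 genes (36.1% of their 72 start sites, against 8.86% of all start sites). GGGCGG was found for 36 of the 60 genes (58.3% of start sites, against 35.7%) and TATAAA for 6 of the 60 (8.33%, against 13.6%). These are matches of letters only, and no binding was measured.

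A level is given on the log2 scale, relative to the 75th percentile of its array. That percentile was taken over the 15527 probes detected well above background on every array, so a level of 0 is brighter than 3 in 4 of those probes. On this scale 156 of the 178 tested probes had a mean level above 0, and the mean levels ranged from -5.68 to 6.94, with a median of 4.17 over large subunit and 4.26 over small subunit probes. Of all 18769 tested probes 3832 lay above 0, and their median was -2.75. A probe's brightness depends on its sequence, so no gene is ranked against another. The 178 probes carried 9.97%, 10.4% and 10.0% of the summed signal of the tested probes on the 3 P38α+/- arrays, a mean of 10.1% ± 0.240 (SD, n = 3). On the 3 arrays labelled P38α-/- they carried 9.72%, 10.3% and 10.0%, a mean of 10.0% ± 0.290 (SD, n = 3). The 2 ranges overlap, and the means differ by less than the spread between arrays.

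Before the genotypes were compared, the targeted gene and the identity of the cells were examined. The brighter probe for Mapk14, the gene of P38α, read 0.32, 0.58 and 0.60 on the P38α+/- arrays and 0.75, 1.19 and 1.20 on those labelled P38α-/-, which is 0.54 higher (standard error 0.19) with an adjusted p of 0.187 from limma. The dimmer probe had a log2 fold change of 0.01. Neither probe was lower on the arrays labelled P38α-/-, and whether they lie in the deleted sequence is not given in the sources used here, so the genotype of each array rests on its label. By genomic PCR and immunoblot, the paper reports excision of the locus and loss of P38α protein in sorted erythroblasts of P38α-/- mice. Slc4a1 (band 3) and Alas2 (the first enzyme of heme synthesis) were well above background on all 6 arrays, and the 12 late erythroid markers averaged 4.86 to 5.06 on the P38α+/- and 4.84 to 5.07 on the P38α-/- arrays. The 9 neutrophil markers were all tested and averaged 1.91 to 3.83 on P38α+/- and 0.84 to 1.48 on P38α-/- arrays, and the 4 of 9 B cell markers that were tested averaged -4.76 to -1.53 and -5.67 to -4.46, while Cd79a, Pax5, Vpreb1 and Igll1 were among those not tested. The monocyte or macrophage markers (8 of 9 tested) averaged -4.05 to -2.69 and -5.29 to -3.29, the T or NK cell markers (4 of 8) -2.87 to -1.93 and -3.17 to -3.07, and the megakaryocyte or platelet markers (3 of 7) -2.16 to -1.89 and -2.59 to -2.03. The early erythroid markers, 6 of 8 tested, averaged -2.37 to -1.50 and -3.19 to -2.34. The part of these other cells in the values below was not tested, and in bulk RNA fewer cells of a type and less RNA per cell cannot be told apart.

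No ribosomal protein probe passed the test between the genotypes. At an adjusted p of at most 0.05 (limma with Benjamini-Hochberg adjustment over all 18769 probes, two-sided) 0 of 178 probes passed, against 28 of all tested probes (0.149%). Without adjustment, 0 of 178 had a p of at most 0.05, against 3934 of all tested probes (21.0%). Most tested probes are dimmer than the members. Of the 465 tested probes outside the family with a mean level above 4, 24 had such a p, against 0 of 99 members in that range. With scaling on the E1A spike-in spots, 2.45% of all tested probes and 0 members had such a p. The lowest unadjusted p of a member was 0.0729 (limma). The methods' t-test, unpaired with equal variances, found 12 of 178 members (6.74%) at p of at most 0.05 before adjustment, against 16.7% of all tested probes, and 0 after it, against 7 of all tested probes. Array weights raised the calls among all tested probes to 3454 (18.4%) and the 75th percentile of all probes raised them to 816 (4.35%), and under both 0 of 178 members passed.

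The size of the differences was small on this scaling. The log2 fold changes (P38α-/- over P38α+/-) of the 178 probes had a median of -0.06 and a standard deviation of 0.13, and 6 of them (3.37%) exceeded 0.3 in either direction. Over all tested probes the median was -0.16 and the standard deviation 0.62, and 48.3% exceeded 0.3. Bright probes varied less, with a standard deviation of 0.34 over the 3574 tested probes as bright as the dimmest member above 0. Of the 465 tested probes outside the family with a mean level above 4, 12.7% exceeded 0.3, against 1 of 99 members (1.01%) in that range. The standard deviation was 0.22 for those 465 probes and 0.11 for the 99 members. The 95% interval of the difference lay within a 2-fold change in either direction for 176 of 178 members, against 58.6% of all tested probes. The exceptions were a dim probe of Rpl21, with an interval from -1.77 to 0.29, and a dim probe of Rps24, with an interval from -1.61 to 0.62. For 137 of the 178 probes the interval also lay within a 1.5-fold change. These bounds hold for this scaling only. With the 75th percentile of all probes the family median was 0.42 and the highest member 0.775.

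**Figure D1:**
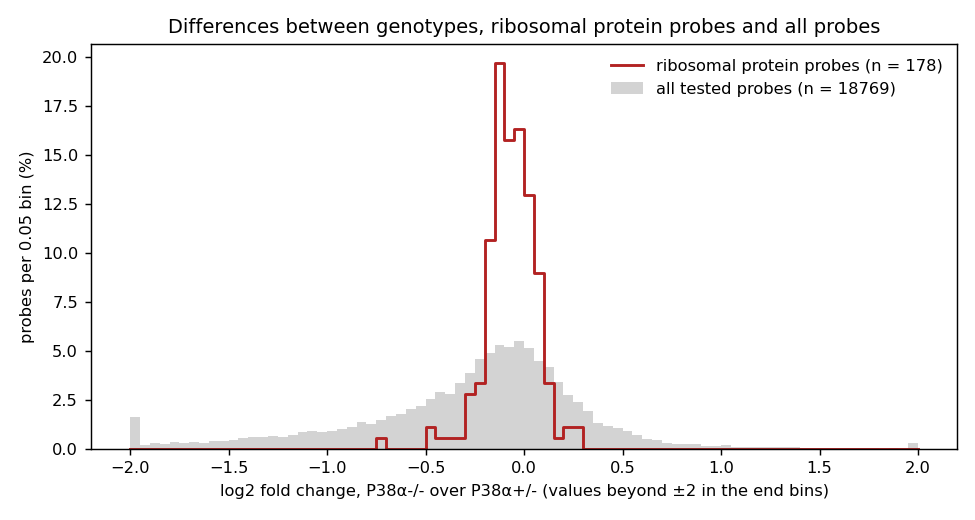
Log2 fold change between the genotypes (x axis) against the percent of probes in each 0.05-wide bin (y axis), for all 18769 tested probes (grey bars) and the 178 ribosomal protein probes (red outline). The ribosomal protein probes sit in a narrow peak around their median of -0.06, while the grey distribution extends past 1 on both sides.

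On this scale 128 of the 178 probes had a negative log2 fold change and 50 a positive one. The direction rests on the scaling. The median of all tested probes was itself -0.16, and relative to it the median of the family was 0.10, with 145 of 178 probes above. Bright probes in general lay above it too, with a median log2 fold change of 0.00 over the 3574 tested probes as bright as the dimmest member above 0 and of -0.03 over the 465 probes outside the family with a level above 4, beside -0.06 for the 99 members in that range. The gap of 0.10 between the family and all probes was 0.03 over probes well above background on all 6 arrays, and 0.03 with array weights. Centring on the E1A spike-in spots put the family median at 0.10 and taking the 75th percentile over all probes put it at 0.42, so the family as a whole has no settled sign in these data. The direction and size of each difference given below are subject to the same shift.

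The arrays of a genotype overlapped for most members. All 3 P38α-/- arrays lay below all 3 P38α+/- arrays for 15 of 178 probes, a share of 8.43% against 20.7% of all tested probes, and above them for 2 probes, 1.12% against 6.93%. Among probes with a mean level above 4 they lay below for 9 of 99 members and 51 of 465 probes outside the family. In that range they lay above for 1 and 29. Same-numbered arrays deviated together and were treated as pairs of mice in one alternative. The P38α-/- array was the lower in all 3 pairs for 69 of 178 probes, 38.8% against 38.7% of all tested probes, and the higher in all 3 pairs for 12 probes, 6.74% against 16.4%. The share lower in all pairs was thus that of any probe, and the other 3 shares lay below those of all tested probes. With the pair as a block the number of members called was again 0.

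The genes were next taken one at a time, by the brightest tested probe of each, for which the log2 fold changes of 77 genes ran from -0.34 to 0.26.

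**Figure D2:**
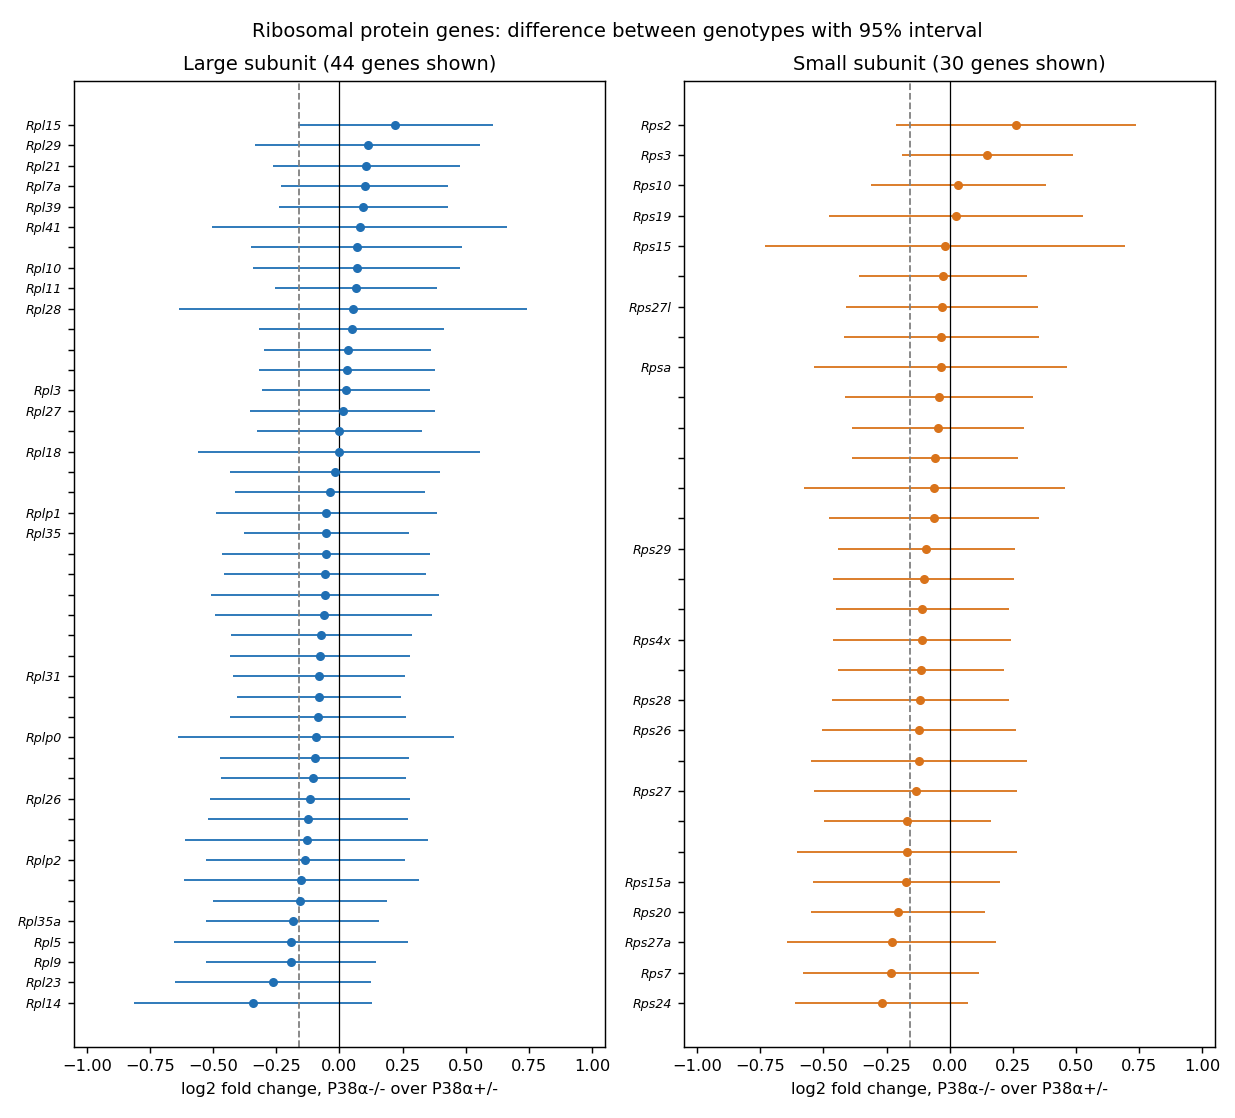
Log2 fold change between the genotypes for the brightest tested probe of a gene (points) with its 95% interval (lines), for 44 large subunit genes (left) and 30 small subunit genes (right), leaving out 3 of the 77 tested genes, which are not reported here. Most genes named in the text are labelled, and the dashed line is the median of all tested probes. Every interval includes 0, and the lowest and highest points are Rpl14 at -0.34 and Rps2 at 0.26.

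In the large subunit the 5 lowest genes were Rpl14, Rpl23, Rpl9, Rpl5 and Rpl35a. Rpl14, a protein of the large subunit's outer surface, had the lowest value of the family. Its brightest probe (chr9:120483487-120483546, mm9) read 4.94, 5.14 and 5.16 on the P38α+/- arrays and 4.47, 5.05 and 4.70 on the P38α-/- arrays. P38α-/- replicates 1 and 3 lay below every P38α+/- array and replicate 2 lay among them. The log2 fold change was -0.34, with a 95% interval from -0.81 to 0.13 (adjusted p = 0.363, limma). The other 2 Rpl14 probes differed in the same direction, by -0.46 (adjusted p = 0.279, limma, the lowest of any member) and by -0.22. The first of these is placed on chromosome 7, away from the gene on chromosome 9, so its locus is uncertain. All 3 probes were lower in P38α-/- in all 3 pairs.

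Rpl5, which with Rpl11 and 5S rRNA can bind and restrain Mdm2, read 2.15, 2.16 and 2.23 on the P38α+/- arrays and 1.68, 2.28 and 2.01 on the P38α-/- arrays. Its log2 fold change of -0.19 (95% interval -0.65 to 0.27) came with P38α-/- replicates 1 and 3 below and replicate 2 above all P38α+/- arrays. Its partner Rpl11 read 5.51, 5.50 and 5.46 on the P38α+/- and 5.56, 5.59 and 5.52 on the P38α-/- arrays. These 6 values do not overlap between genotypes, yet they span so little that the log2 fold change was 0.07 (95% interval -0.25 to 0.39). Rpl9 had -0.19, with no overlap for either of its 2 probes, Rpl23 had -0.26 and Rpl35a -0.18.

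The 5 highest large subunit genes were Rpl15, Rpl29, Rpl21, Rpl7a and Rpl39. Rpl15, a Diamond-Blackfan anemia gene, read 4.77, 4.41 and 4.61 on the P38α+/- arrays and 4.91, 4.73 and 4.81 on the P38α-/- arrays. Its log2 fold change was 0.22 (95% interval -0.16 to 0.61, adjusted p = 0.470, limma), and its second, dimmer probe had -0.09. Rpl29 had 0.11 and Rpl21 0.11, while the dim Rpl21 probe that 1 P38α-/- array did not detect had -0.74 (standard error 0.43). Rpl7a and Rpl39 had 0.10 and 0.09.

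Rpl7a also shows how the array reads a family with many near copies. A pair of its probes share the position chr2:26768759-26768818 (mm9) but differ at 6 of 60 bases, and 2 of these differences, T24C and G26A (the brighter probe's base first, counted from its 5′ end), lie in the first 30 bases, shown here with the differing bases in capitals.

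Rpl7a brighter probe: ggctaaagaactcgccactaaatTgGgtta
Rpl7a dimmer probe: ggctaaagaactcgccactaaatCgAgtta

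The brighter of the pair read 1.89, 1.89 and 1.92 on the P38α+/- arrays and 1.67, 2.02 and 2.02 on the P38α-/- arrays. The dimmer read -3.35, -3.48 and -3.62 and then -3.71, -3.60 and -3.23. Their log2 fold changes were 0.01 and -0.03, within the standard errors of 0.16 and 0.19. The level read for Rpl7a thus depended on the probe, and which of the pair matches Rpl7a itself was not examined.

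In the small subunit the 5 lowest genes were Rps24, Rps7, Rps27a, Rps20 and Rps15a. Rps24, a Diamond-Blackfan anemia gene whose last exons are alternatively spliced, read 5.64, 5.73 and 5.52 on the P38α+/- arrays and 5.35, 5.42 and 5.32 on the P38α-/- arrays (chr14:25315021-25315080, mm9). The groups do not overlap, and the log2 fold change was -0.27 (95% interval -0.61 to 0.07, adjusted p = 0.329, limma). A probe that overlaps it gave -0.26, and of 2 dimmer probes that span introns the first had -0.10 and the dimmest -0.49 with a standard error of 0.46. Rps20 read 5.88 to 6.04 on the P38α+/- and 5.69 to 5.87 on the P38α-/- arrays, without overlap, a log2 fold change of -0.20 (95% interval -0.55 to 0.14). Rps7 had -0.23, also without overlap, Rps15a had -0.17, and Rps27a, which is made as a fusion with ubiquitin, had -0.23 and -0.28 by its 2 tested probes.

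Among the highest small subunit genes were Rps2, Rps3, Rps10 and Rps19. Rps2, a protein near the mRNA entry channel, read 5.90, 5.45 and 5.73 on the P38α+/- arrays and 6.19, 5.74 and 5.94 on the P38α-/- arrays. The groups overlap because replicate 1 is the brightest and replicate 2 the dimmest in both genotypes, and within each pair the P38α-/- array is the higher. The log2 fold change was 0.26 (95% interval -0.21 to 0.74, adjusted p = 0.484, limma), and with the pair as a block the adjusted p was 0.227. A second Rps2 probe had 0.29, and the array places the brighter at chr17:42864841-42864900 and the other at chr17:24857583-24857642 (mm9), so they need not read the same locus. Rps3, which also lines the mRNA entry channel, read 2.53, 2.57 and 2.43 on the P38α+/- and 2.61, 2.61 and 2.75 on the P38α-/- arrays, a log2 fold change of 0.15 (95% interval -0.19 to 0.49). Rps10 and Rps19 had 0.03 and 0.02.

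**Figure D3:**
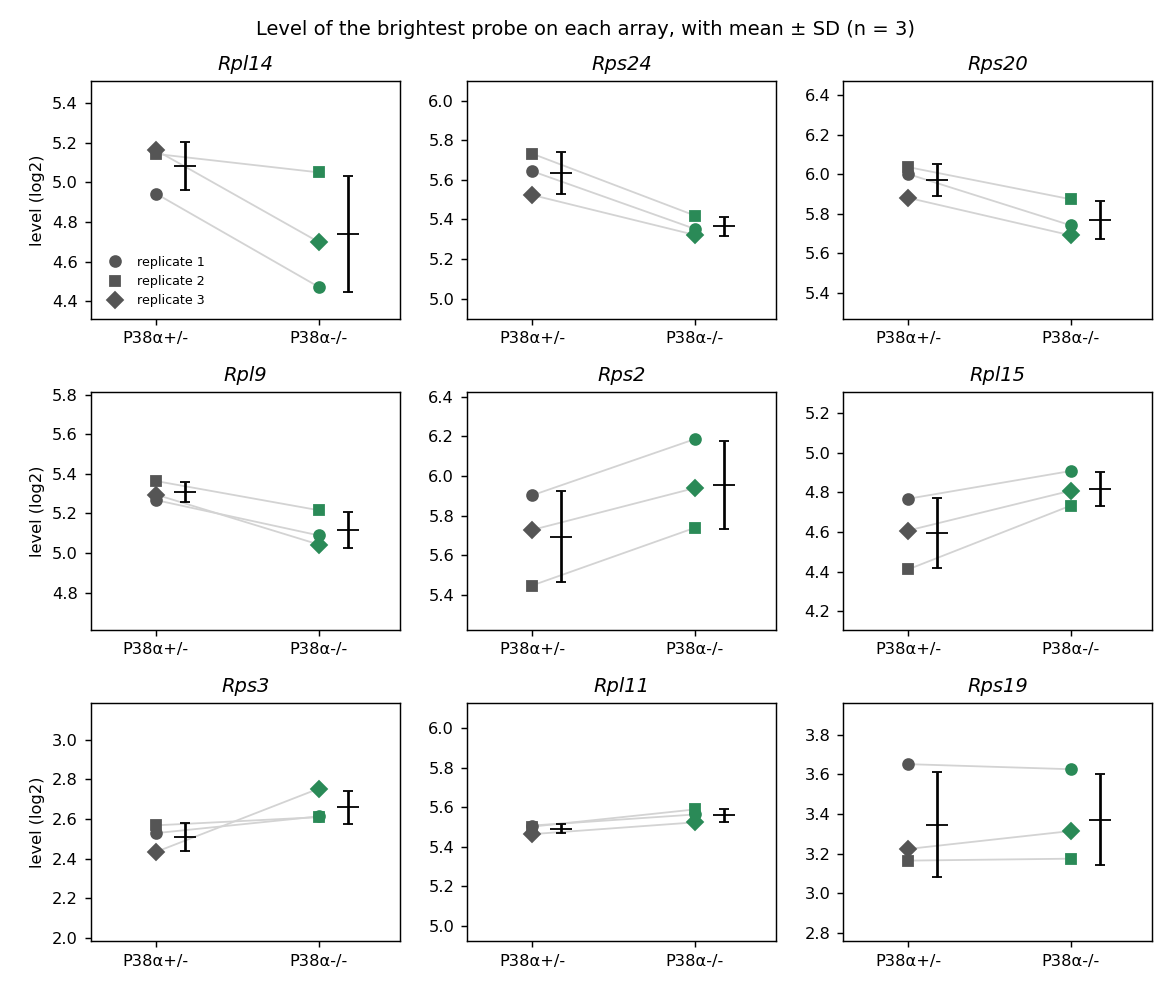
Level of the brightest probe (log2, relative to the array's 75th percentile; each y axis spans the same width) on each array for 9 genes, with grey lines joining same-numbered arrays and the mean ± SD beside each genotype (n = 3). Rps24, Rps20 and Rpl9 do not overlap and are lower in P38α-/-, Rps3 and Rpl11 do not overlap and are higher, and Rps2 is higher within each pair while its groups overlap.

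The subunits were compared with each other because their proteins are needed in step. The median log2 fold change was -0.06 over 110 large subunit probes and -0.09 over 68 small subunit probes, a difference of 0.04. For each array the median of the large subunit minus that of the small was taken, every probe relative to its own mean over the 6 arrays. This was -0.04, -0.04 and 0.01 on the P38α+/- arrays and -0.01, 0.03 and 0.04 on the P38α-/- arrays, and the 2 sets overlap. Within the same-numbered pairs the value was higher in P38α-/- by 0.02, 0.07 and 0.03, so in all 3. The means were -0.02 ± 0.03 and 0.02 ± 0.03 (SD, n = 3 each). The difference of the probe medians was 0.0049 when the probes placed on another chromosome than their gene were left out, a setting added with the results in view.

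The 21 Diamond-Blackfan anemia genes on the list were all tested. At an adjusted or an unadjusted p of at most 0.05 (limma) 0 passed, beside 0.149% and 21.0% of all tested probes. Of these genes 16 had a negative and 5 a positive log2 fold change, with a median of -0.09 beside -0.16 over all tested probes. Rps19, the gene most often mutated in this disease, read 3.65, 3.16 and 3.22 on the P38α+/- and 3.63, 3.17 and 3.31 on the P38α-/- arrays. The difference of 0.02 (95% interval -0.48 to 0.53) is far smaller than the gap between replicate 1 and the others in either genotype. Rps26, Rps27, Rps28 and Rps29 had -0.12, -0.13, -0.12 and -0.09, Rps10 0.03, and Rpsa -0.03. Rpl18, Rpl26, Rpl27, Rpl31 and Rpl35 had 0.00, -0.12, 0.01, -0.08 and -0.05.

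The stalk proteins Rplp0, Rplp1 and Rplp2 bring translation factors to the large subunit. Rplp0 read 7.02, 6.51 and 6.47 on the P38α+/- and 6.87, 6.38 and 6.47 on the P38α-/- arrays. Its log2 fold change was -0.09, that of Rplp1 -0.05 and that of Rplp2 -0.13. Without pairing each lay within its standard error of 0.23, 0.18 and 0.16. With the pair as a block the standard errors were 0.117, 0.116 and 0.131, and Rplp2, at -0.134, no longer lay within its own.

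Some ribosomal proteins have paralogs with restricted expression, of which Rpl3l is known from muscle, Rpl10l and Rpl39l from testis and Rps27l as a P53 target. Rpl3l and Rpl39l were not well above background on any array, and the 2 Rpl10l probes were so only on P38α+/- replicate 1, the array on which the largest share of probes was detected (53.0%, against 28.9% to 38.2% on the others). These 3 genes were not tested. Their canonical partners Rpl3, Rpl10 and Rpl39 were well above background on all 6 arrays by their brightest probes, with log2 fold changes of 0.03, 0.07 and 0.09. Rps27l was detected on all 6 arrays and read 2.63, 2.64 and 2.78 on the P38α+/- and 2.54, 2.85 and 2.56 on the P38α-/- arrays. Its difference of -0.03 (95% interval -0.41 to 0.35) stood beside -0.13 for Rps27. Rps4x, the partner of a further paralog with no probe here, had -0.11.

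Of the 8 probes not tested, 4 belong to Rpl3l, Rpl10l and Rpl39l. The others, among them those of Rpl6, Rps15a and Rps27a, are additional, dim probes of genes that each have a brighter probe that was tested.

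Probes of 1 gene mostly pointed the same way. Of 61 genes with more than 1 tested probe, 37 had all probes negative, 11 all positive and 13 both. Since the family has many processed copies, the place that the array gives a probe in mm9 was compared with the chromosome of its gene. Of the 186 probes 24, of 16 genes, were placed on another chromosome, and for Rpl36, Rps27, Rps29 and Rps4x all probes were. For Rps2 and Rpl31 probes lay over 1 Mb apart on the right chromosome. The 24 probes had a median log2 fold change of -0.09, against -0.06 for the 115 tested probes on the gene's own chromosome and -0.06 for the 38 that span an intron. A probe can read a gene together with copies that match it closely. How closely copies match each probe was not examined, so values of these genes are uncertain as to locus.

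Within the family the arrays also differed by replicate number. For 64 of the 178 probes (36.0%) both replicate 1 arrays lay above the other 4 arrays, against 16.8% of all tested probes. For 8 of the 178 both lay below, against 1490 of all 18769 tested probes. Rpl28 read 5.83 and 5.91 on replicate 1 of P38α+/- and P38α-/-, and 5.12 to 5.29 on the others. Rps15, Rpsa, Rpl41, Rplp0 and Rps19 had the same order, with the replicate 1 arrays higher by 0.67, 0.43, 0.54, 0.49 and 0.42 on average. The brightest Rpl14 probe had a mean offset of -0.31, though its P38α+/- replicate 1 array lay above 1 of the other 4. Among the 156 members with a level above 0 the offset was larger for probes of higher GC content (Pearson r = 0.51, Spearman rho = 0.50 across probes, which share the same 6 arrays, a description with no test). Over all tested probes the same correlations were 0.30 and 0.35. The E1A spike-in spots were also brighter on the replicate 1 arrays, at 12.20 and 12.03 on the log2 scale before scaling against 11.04 to 11.33 on the others, and their part in the offset was not tested.

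**Figure D4:**
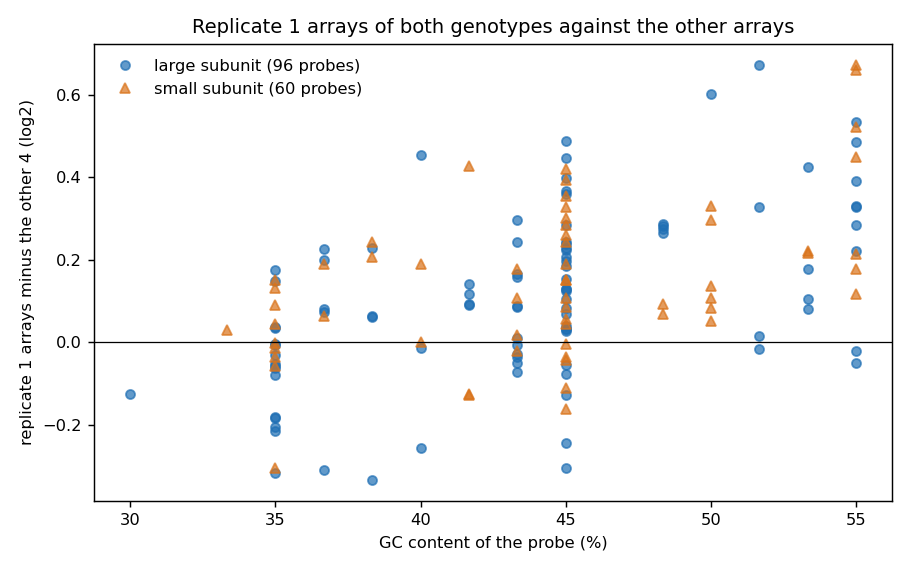
GC content of each probe (x axis, percent) against the mean level on the 2 replicate 1 arrays minus that on the other 4 arrays (y axis, log2), for the 156 ribosomal protein probes with a mean level above 0, by subunit. Most points lie above 0, and the highest, above 0.6, belong to probes with a GC content of 50% or more.

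Genes that work with the family were examined by their brightest tested probe. A list of 8 further ribosomal proteins and related factors had a median log2 fold change of -0.07. At the adjusted and unadjusted thresholds 0 passed, beside 0.149% and 21.0% of all tested probes. This list holds Rps3a1, whose probe is that of the member Rps3a and is counted in both sets. The fusion gene Fau had 0.03, and Rpl22l1 and Rsl24d1, the latter not a ribosomal protein itself, were lowest at -0.22 and -0.26. A list of translation factors and other genes known for TOP mRNAs, whose own start sites were not read here, had a median of -0.10 over 18 genes. Of these 0 passed after adjustment and 1 without it, beside 21.0% of all tested probes without adjustment. Eef1d, a subunit of elongation factor 1, had 0.35 and Eif3l 0.07, while Hnrnpa1 had -0.50 and the poly(A) binding protein Pabpc1 -0.32.

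The factors that make ribosomes had lower medians than the ribosomal proteins. Over 54 of 56 ribosome biogenesis factors the median was -0.25, and 46 were negative and 8 positive. After adjustment 0 passed and without it 7 did (limma), beside 21.0% of all tested probes without adjustment. Arrays did not overlap for 16 of the 54, all lower in P38α-/-, beside 20.7% of all tested probes. Lsg1, which acts in the last steps of large subunit maturation, had 0.26 and Gnl2 0.12, while Rrp1b had -0.95. Utp20 was detected on all 3 P38α+/- arrays and 1 of 3 P38α-/- arrays, so no exact difference is given. The RNA polymerase I list had a median of -0.28 over 18 of 19 genes, of which 0 passed after adjustment and 3 without it, beside the same 21.0%. Polr2e and Polr2l, subunits it shares with the other nuclear polymerases, had 0.32 and 0.21, and Polr1g was detected on 2 of 3 P38α-/- arrays only. Taf1b, of the factor that places polymerase I on the rDNA promoter, was not well above background in any P38α-/- mouse and was at least 1.64-fold higher in P38α+/- (adjusted p = 0.066, limma). Taf1b entered the test through the P38α+/- arrays alone, with background signals in the other group, so its p is not read as support for a difference. These lists are dimmer than the ribosomal proteins, with mean levels of -2.26 to -1.60 per array, and their medians differ from that of all tested probes by -0.09 and -0.12.

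Regulators of translation and of the response to ribosome stress had a median of -0.01 over 18 of 19 genes. After adjustment 0 passed and without it 2 did, beside 21.0% of all tested probes without adjustment. Rptor, the mTORC1 scaffold, had 0.88 (adjusted p = 0.151, limma), while Mdm4 had -0.67 (adjusted p = 0.139, limma). Trp53 had 0.48 with a standard error of 0.60 (adjusted p = 0.691, limma), and its arrays overlapped between the genotypes. Tsc2, the lowest of this list, was detected on 1 of 3 P38α-/- arrays and is given no exact difference. For comparison, the 96 tested probes of the mitochondrial ribosomal proteins had a median of 0.07 and a standard deviation of 0.25. Of these probes 0 were called after adjustment and 6 without it, beside the same 21.0%, and that list was not compared further.

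**Figure D5:**
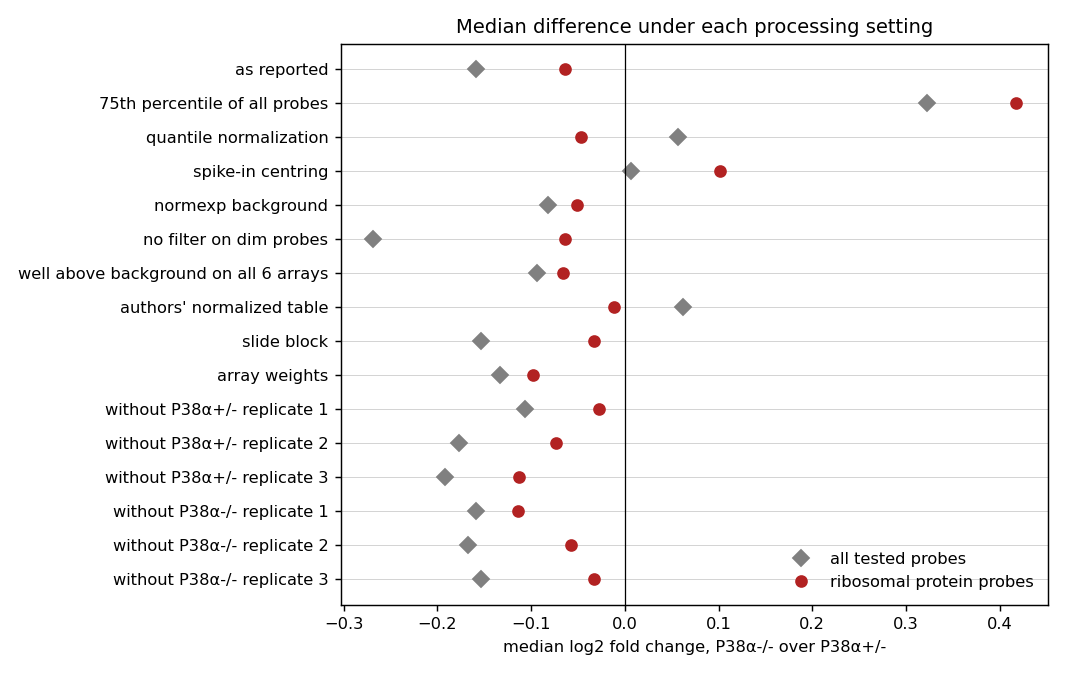
Median log2 fold change between the genotypes (x axis) of the 178 ribosomal protein probes (red circles; 175 for probes well above background on all 6 arrays) and of all tested probes (grey diamonds) under each processing setting (y axis). The red circles move from -0.11 to 0.42 with the scaling and the arrays used, and lie on both sides of 0 and of the grey diamonds.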

How the data were processed

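The authors deposited, for each of 6 arrays, intensity values as written by Agilent Feature Extraction (10.7.3.1 per the file headers), background-subtracted and not normalized between arrays, and a linear intensity table whose values are quantile normalized. The members and lists were chosen with earlier results of these data known. Control and outlier spots were left out, spots of a probe averaged, and log2 signals centred on each array's 75th percentile over probes well above background on all 6 arrays. Well above background were 28.9% to 53.0% of probes per array, no spot was saturated, and the number of arrays limits the precision. Genotypes were compared with limma 3.58.1 in R 4.3.3 (lmFit, eBayes) over 18769 probes with Benjamini-Hochberg adjustment at 0.05, and the procedure was tested on simulated data. Intervals are 95% moderated intervals, and they and the standard errors come from the fit without pairs unless the block is named. Each genotype has 3 mice.

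Genes were named by their brightest tested probe: the 5 highest and 5 lowest of each subunit, the Diamond-Blackfan anemia genes, paralogs and partners, stalk and fusion genes, untested members, the 2 highest and 2 lowest of each related list, and Mapk14. Rpl28, Rps15, Rpl41, Slc4a1, Alas2, the genes named for probe placement and the array offset were added after their values were seen. Same-numbered arrays deviated together from their genotype means (correlations of 0.54, 0.31 and 0.42, against -0.48 to 0.18 for other pairs), and the series describes pairs of mice. Alternatives were other percentiles, quantile and spike-in scaling, normexp with an offset of 50, other filters, the authors' table, replicate and slide blocks, array weights, the methods' t-test, single arrays left out, and gene-level summaries. Gene chromosomes and start sites are those of RefSeq (GRCm38.p6) and probe positions those of mm9 in the array files, whose exon annotation was not used here. Some genes that these rules name are not reported here.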

Additional observations from a re-analysis of the deposited data

How the results depend on the processing

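The number of ribosomal protein probes called was 0 under every alternative run, the replicate block included, which called 65 of all tested probes against 28 without it and changed no call of a member. The median log2 fold change of the family, -0.06, became 0.42 with the 75th percentile of all probes, 0.10 with spike-in centring and 0.10 relative to the median tested probe, as those scalings shift every probe by the same amount. It stayed within 1 SD of the array medians (0.08) under the other alternatives, and between -0.11 and -0.03 with single arrays left out. Relative to all tested probes it was lower under quantile normalization (-0.10) and in the authors' table (-0.07) and higher under the others, the cause was not tested, and that table's values for P38α-/- replicate 2 rank differently from its scanner file (Spearman 0.898 over all probes, against 1.00 for the other arrays). Large minus small subunit, 0.04, became 0.0049 with only probes placed on the chromosome of their gene, a setting added with the results in view. The brighter Mapk14 probe read 1.03 with the 75th percentile of all probes and passed with array weights (0.61, adjusted p = 0.0325 from limma, against 0.187). The positive values of Rps2, Rpl15, Rpl29, Rps3, Rpl11, Rpl21, Rpl7a and Rpl39 kept their sign under all alternatives. The percentile of all probes and spike-in centring raise every probe, so under them a positive value could not change sign. Rpl14 kept its sign under all but the percentile of all probes (0.14), while Rplp0, Rpsa and Rps27l changed it under 7, 8 and 9 of 18. The calls among all tested probes ran from 0 to 3454, and the slide block amounts to leaving out P38α-/- replicate 3, alone on its slide.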
